A study of Arabidopsis thaliana with 72 samples.

Results

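WL_HM5 is 1 of 7 Hybrid Mimic lines that were bred from the F1 hybrid between the Arabidopsis accessions Wassilewskija (Ws) and Landsberg erecta (Ler). Its members here are the 3 libraries labelled WL_HM5, out of 72 libraries in the whole series. The reference is the mid-parent value (MPV), the mean of the 3 Ws and 3 Ler libraries with the accessions at equal weight. A second comparison set WL_HM5 against the 18 libraries of the other 6 lines (WL_HM1 to WL_HM4, WL_HM6 and WL_HM7), and another against the 6 libraries of the reciprocal F1 hybrids WsxLer and LerxWs. All plants were raised on sucrose medium, moved to soil, and kept under long days with no further treatment, and rosette leaves were taken at 25 days around midday. Each WL_HM5 library came from 1 F7 plant, and its 3 plants were siblings. Libraries of the other Hybrid Mimics were made in the same way, whereas a library of an F1 hybrid or of a parent pooled 3 plants. A difference in spread between lines and parents therefore cannot be told apart from the pooling.

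A Hybrid Mimic is obtained by picking plants that look like the large F1 hybrid in each generation of selfing, so that the F1-like rosette becomes a property of a nearly homozygous line. Unlike an F1 hybrid, which holds both parental alleles at each locus, such a line is expected to have fixed the allele of one parent at most loci. Rosette growth depends on wall synthesis, wall loosening, auxin signalling and cell division, and it competes with defence and ends with flowering and senescence.

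Library totals in the series lay between 17741358 and 28527725 counts on genes, and the WL_HM5 libraries held 18926295, 23299725 and 21627206. The tissue label was checked with marker genes. The summed level of 6 photosynthetic leaf genes was 48100 to 57400 CPM, which are normalised counts scaled to a library of equal size, in WL_HM5, against 31400 to 41700 CPM in Ws and 35800 to 49400 CPM in Ler. Of 4 root markers, 3 had no count in any WL_HM5 library. The 8 flower markers summed to 0.764 to 1.77 CPM in WL_HM5, against 4.12 to 8.44 CPM in Ws and 6.12 to 7.93 CPM in Ler. In bulk leaves, fewer cells of a type and less RNA per cell cannot be told apart. Among the parent libraries, Ws replicate 2 stood apart for a group of defence genes described below, and where it decides a call or a value this is stated.

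Against MPV, 3196 of the 18146 genes tested were called at an adjusted p of at most 0.05, which is 17.6%. Of these, 1269 genes (6.99%) were up-regulated and 1927 (10.6%) were down-regulated, so that 60.3% of the calls were lower in WL_HM5. With library totals alone as the scaling, 724 genes were up-regulated and 2231 down-regulated, or 75.5% lower. The share lower was 57.3% with RLE size factors, 55.5% with DESeq2 and 51.9% with a mid-parent on the log scale. The difference reached 2-fold for 1009 of the 3196 called genes. A smaller set of 1349 genes (7.43%) was called again each time 1 library was left out, with 410 up-regulated (2.26%) and 939 down-regulated (5.17%). These are the calls described as held below. The count fell to 1905 without WL_HM5 replicate 3, to 1914 without MPV replicate 2 and to 1996 without MPV replicate 3. For 1468 called genes (8.09%), 580 up-regulated (3.2%) and 888 down-regulated (4.89%), all 3 WL_HM5 libraries lay outside the range of the 6 parent libraries.

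Changes were ranked among called protein-coding genes with a mean of at least 100 normalised counts in the higher group. All 3 WL_HM5 libraries also had to lie outside the range of the 6 parent libraries. The largest rises over MPV by this ranking were in a small group of transcription factors that act in the iron-deficiency response. Plants short of iron switch on the bHLH factors BHLH38, BHLH39, BHLH100 and BHLH101, which work with a partner to raise iron uptake and its distribution. In the same network the ligase BTS restrains the response and ferritins store iron in plastids.

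BHLH100 (AT2G41240) was at 2.13, 10.1 and 12.6 CPM in the WL_HM5 libraries, against 0.876, 0.0463 and 0.453 CPM in Ws and 0.0466, 0.156 and 0.193 CPM in Ler. Every WL_HM5 library was above every parent library, although the 3 siblings themselves spread widely. Its log2 fold change was 4.80 ± 0.92 (SE, n = 3 against 3 MPV libraries), with an adjusted p of 0.00058 by edgeR. BHLH39 (AT3G56980) was at 2.78, 7.22 and 14.6 CPM in WL_HM5, against 0.369, 0.139 and 1.4 CPM in Ws and 0.0466, 0.156 and 0.155 CPM in Ler. The groups again did not overlap, and the log2 fold change was 4.36 ± 0.99 with an adjusted p of 0.0029 by edgeR. This value was 5.50 without MPV replicate 3 and 3.65 without WL_HM5 replicate 3. BHLH38 (AT3G56970) was at 1.58, 4.56 and 9.32 CPM in WL_HM5, against 0.415, 0.0463 and 1.03 CPM in Ws and 0.0466, 0 and 0.193 CPM in Ler. It had a log2 fold change of 4.07 ± 0.97 and an adjusted p of 0.0043 by edgeR, and it moved to 5.27 without MPV replicate 3 and to 3.33 without WL_HM5 replicate 3. In all 3 genes the lowest WL_HM5 library was replicate 1.

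Other genes of iron handling differed from MPV by smaller amounts. BTS (AT3G18290) was at 259, 303 and 242 CPM in WL_HM5, against 183, 105 and 138 CPM in Ws and 100, 120 and 100 CPM in Ler. It lay above both parents in each library, with a log2 fold change of 1.12 ± 0.23 and an adjusted p of 0.00093. FRO3 (AT1G23020), a ferric reductase of mitochondria, was at 43.1, 73.1 and 52.5 CPM in WL_HM5, against 45.3, 36.4 and 34.7 CPM in Ws and 15, 17.2 and 19.2 CPM in Ler. Its values overlapped those of Ws, and the rise of 1.02 ± 0.26 on the log2 scale (adjusted p = 0.0066) was at the limit without WL_HM5 replicate 2 (adjusted p = 0.05). ZIF1 (AT5G13740), a vacuolar transporter that affects zinc and iron partitioning, was at 62.4, 92.6 and 82 CPM in WL_HM5, against 57.5, 42.3 and 56.4 CPM in Ws and 27.3, 32.6 and 39.9 CPM in Ler. All 3 libraries exceeded all parents (log2 fold change 0.90 ± 0.24, adjusted p = 0.0099), and the call was lost without MPV replicate 2 (adjusted p = 0.055). FER1 (AT5G01600), the main leaf ferritin, was at 41.6, 43.9 and 43.4 CPM in WL_HM5, against 94, 157 and 51.2 CPM in Ws and 111, 161 and 228 CPM in Ler. The log2 fold change of -1.61 had an adjusted p of 0.044, and the call was lost without MPV replicate 2 (0.13), MPV replicate 3 (0.095) or WL_HM5 replicate 1 (0.11), 2 (0.087) or 3 (0.12). The list of iron-homeostasis genes, which was drawn up after these values had been seen, holds 18 genes. Of its 16 tested members, 7 were up-regulated, of which 4 held, and 1 was down-regulated, with a median log2 fold change of 0.72 against 0.00 over all genes tested.

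**Figure D1:**
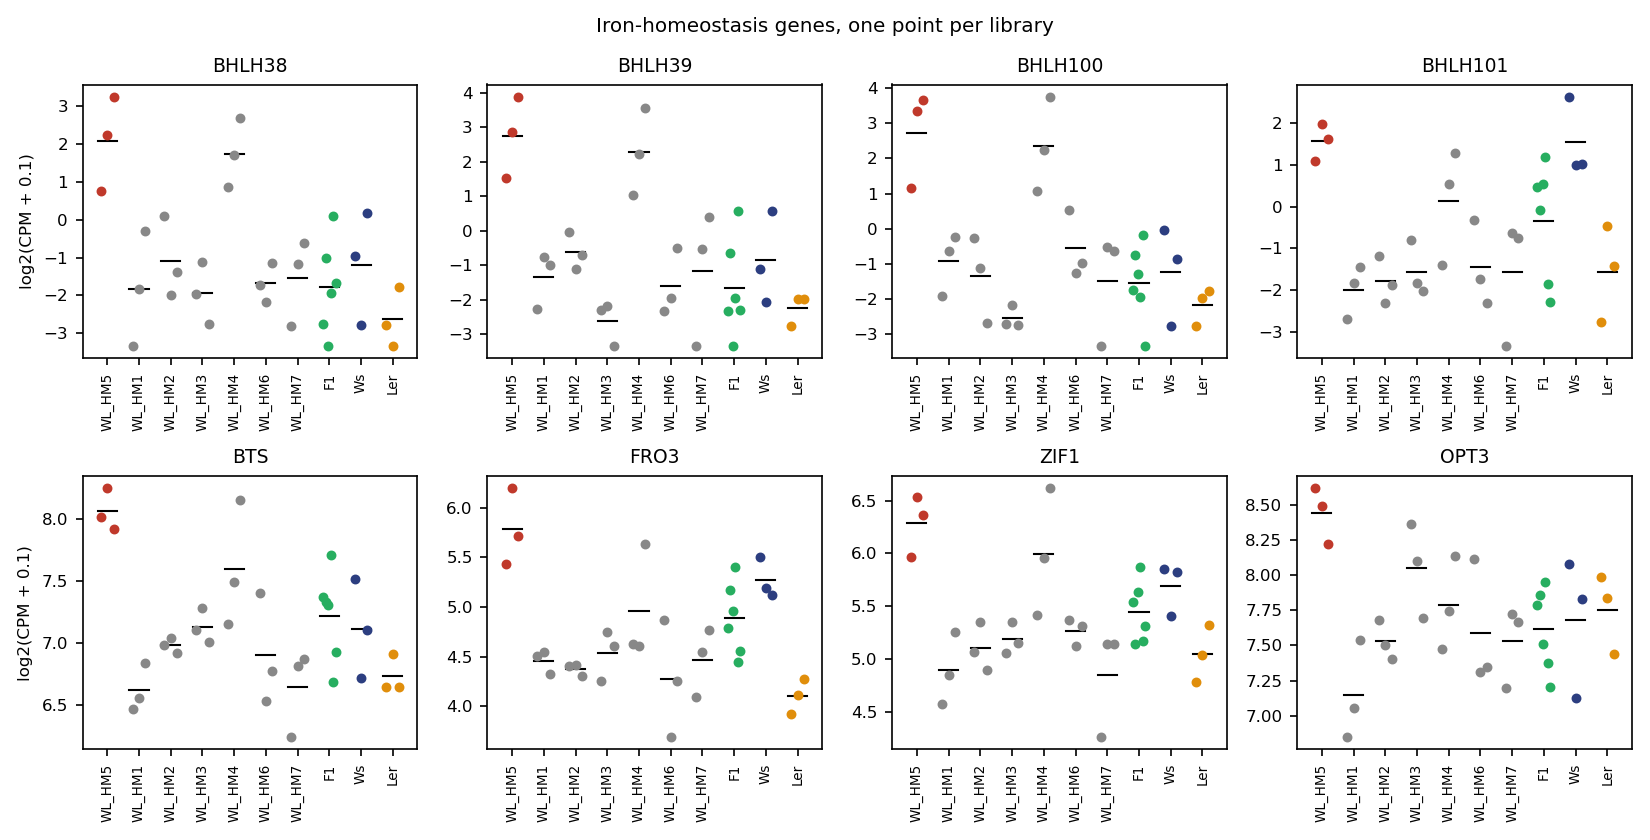
Levels of 8 iron-homeostasis genes in each library, as log2 of CPM plus 0.1, for WL_HM5, the other 6 Ws/Ler Hybrid Mimics, the F1 hybrids, Ws and Ler. Each point is 1 library and the bar is the mean of the log2 values; the BHLH38, BHLH39 and BHLH100 points of WL_HM5 lie above all parent and F1 points, and WL_HM4 is the other line with raised levels.

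The remaining genes of the largest rises by this ranking carry varied annotations, and whether any of them respond to iron was not tested. AT1G13609, a defensin-like protein gene, was at 10.1, 20.1 and 31.7 CPM in WL_HM5, against 0.738, 0.139 and 2.39 CPM in Ws and 0.933, 1.61 and 3.21 CPM in Ler. It rose by 3.78 ± 0.72 on the log2 scale (adjusted p = 0.00053), or by 4.62 without MPV replicate 3. NIG1 (AT5G46830), a calcium-binding bHLH factor of the salt response, was at 3.93, 5.23 and 5.2 CPM in WL_HM5, against 0.231, 0 and 0.0824 CPM in Ws and 0.746, 0.934 and 1.16 CPM in Ler. The 3 siblings were close together there and above both parents (log2 fold change 3.21 ± 0.55, adjusted p = 0.00014). AT2G27402, annotated as a plastid transcriptionally active protein, was at 37.6, 17.4 and 25.9 CPM in WL_HM5, against 3.04, 5.41 and 12 CPM in Ws and 0 CPM in each Ler library. WL_HM5 exceeded even the higher parent, with a log2 fold change of 2.94 ± 0.47 (adjusted p = 5.9e-05) that became 3.69 without MPV replicate 3. AT1G59930, a MADS-box family gene, was at 6.16, 5.54 and 12.1 CPM in WL_HM5, against 0.922 to 2.05 CPM over the 6 parent libraries, and rose by 2.53 ± 0.35 (adjusted p = 8.1e-06). AT1G31690, a copper amine oxidase family gene, rose by 2.18 ± 0.57 (adjusted p = 0.0082). AT5G18840, of the major facilitator superfamily, had a log2 fold change of 2.1 ± 0.72 and an adjusted p of 0.042, and its call was lost with any 1 of the WL_HM5 or MPV libraries left out (adjusted p from 0.059 to 0.11). AT1G47395, which the annotation does not characterise, rose by 2.07 ± 0.56 (adjusted p = 0.011) and lost its call without MPV replicate 2 (adjusted p = 0.074).

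Among genes ranked in the same way, outside the range of all parent libraries, the 10 largest falls included 4 plant defensins. Defensins of this kind are small secreted antifungal peptides of the jasmonate and ethylene response. PDF1.2a (AT5G44420) was at 2.29, 1.15 and 2.03 CPM in WL_HM5, against 35.6, 806 and 91.9 CPM in Ws and 5.6, 4.51 and 25.4 CPM in Ler. All parent libraries were above all WL_HM5 libraries, and Ws replicate 2 was far above the others. The log2 fold change was -6.47 ± 1.15 (adjusted p = 0.00023), and -4.46 without MPV replicate 2 (adjusted p = 0.0038). PDF1.2c (AT5G44430) had 2 counts in the 3 WL_HM5 libraries together, against 13467 counts in the 6 parent libraries. The mean parent level was 3070 times that of WL_HM5, with a 95% counting interval of 849 to 25300, but Ws replicate 2 alone was at 593 CPM, and without that library 653 parent counts remained and the parent level was 177 times that of WL_HM5 (48.9 to 1470). PDF1.3 (AT2G26010) had 0 counts in WL_HM5, against 1742 in the parents, and was at least 264-fold lower when 3 counts over the group were taken as the floor, or at least 45.4-fold lower than the 5 parent libraries without Ws replicate 2. These folds without Ws replicate 2 were added after the values were seen. Without MPV replicate 2 neither PDF1.2c (adjusted p = 0.15) nor PDF1.3 (adjusted p = 0.14) was called, and PDF1.3 also missed the threshold without WL_HM5 replicate 1 (0.073), 2 (0.065) or 3 (0.082). PDF1.2b (AT2G26020) was at 0.0545, 0.0886 and 0.843 CPM in WL_HM5, against 1.15, 226 and 2.88 CPM in Ws and 2.75, 3.89 and 11.9 CPM in Ler. The log2 fold change was -6.94 ± 1.91 with an adjusted p of 0.012, but -3.76 and not called without MPV replicate 2 (0.19), and not called without WL_HM5 replicate 1 (0.054). Reads that fit several of these near-identical defensin genes were not counted, so their separate values are uncertain. Of the 4, only PDF1.2a was called without MPV replicate 2.

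CYP81D11 (AT3G28740), a cytochrome P450 induced by foreign chemicals, was at 0.218, 0.576 and 0.595 CPM in WL_HM5, against 22.9, 9.94 and 7.13 CPM in Ws and 6.95, 5.97 and 11 CPM in Ler. It was low in all 3 siblings and did not depend on 1 parent library, with a log2 fold change of -4.46 ± 0.74 (adjusted p = 0.00011). AT2G43590, a chitinase family gene, was at 0.6, 1.46 and 1.73 CPM in WL_HM5, against 2.72, 7.59 and 4.04 CPM in Ws and 14.9, 49.1 and 68.7 CPM in Ler, and fell by 4.21 (SE 0.84, adjusted p = 0.0009). AT5G41590, a LURP-one-like gene, was at 0.327, 0.177 and 0.248 CPM in WL_HM5, against 13.5, 12.7 and 6.67 CPM in Ws and 0.606, 0.83 and 1.24 CPM in Ler. There the parents differed too, and WL_HM5 was below the lower of them (log2 fold change -4.54 ± 0.60, adjusted p = 4.3e-06). AT1G15125, a methyltransferase gene, had a log2 fold change of -4.14 ± 0.88 (adjusted p = 0.0015), or -2.63 without MPV replicate 2 (adjusted p = 0.032), and Ws replicate 2 held 328 CPM. AT3G23550, a MATE efflux gene, fell by 4.00 (SE 0.82, adjusted p = 0.0011). AACT1 (AT5G61160), an anthocyanin acyltransferase gene, had a log2 fold change of -6.23 ± 2.08 (adjusted p = 0.037). This call was lost without MPV replicate 2 (0.21) and without WL_HM5 replicate 1 (0.11), 2 (0.076) or 3 (0.13).

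Genes for making the cell wall were higher than MPV. Cellulose is laid down by complexes of CESA subunits, with CESA1, CESA3 and CESA6-type subunits in growing primary walls and CESA4, CESA7 and CESA8 in secondary walls. Of 9 CESA genes tested, 7 were up-regulated and none was down-regulated, the median log2 fold change was 0.47, and 4 of the calls held. With library totals as the scaling 5 were up-regulated. CESA1 (AT4G32410) was at 474, 427 and 492 CPM in WL_HM5, against 305, 286 and 315 CPM in Ws and 358, 395 and 377 CPM in Ler. WL_HM5 was above both parents in each library, by 0.46 ± 0.11 on the log2 scale (adjusted p = 0.0047). CESA6 (AT5G64740) was at 296, 255 and 305 CPM in WL_HM5, against 181, 140 and 179 CPM in Ws and 232, 281 and 232 CPM in Ler, a difference of 0.47 ± 0.10 (adjusted p = 0.0023) with 1 Ler library inside the WL_HM5 range. CESA2 (0.44 ± 0.11, adjusted p = 0.0063) and CESA3 (0.46 ± 0.10, adjusted p = 0.0024) gave log2 fold changes of the same size. CESA7 (AT5G17420) was at 18.9, 11.7 and 13.7 CPM in WL_HM5, against 2.95, 1.43 and 5.03 CPM in Ws and 14.3, 12.1 and 3.02 CPM in Ler. Its rise of 1.18 ± 0.30 (adjusted p = 0.0066) was lost without MPV replicate 3 (adjusted p = 0.058). The calls of CESA4 and CESA8, the other secondary-wall subunits, did not hold either.

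UDP-sugars are the building blocks of the wall matrix, and 4 of 6 genes for UDP-sugar enzymes were up-regulated with a median log2 fold change of 0.47. With library totals as the scaling 2 were up-regulated. UGD2 (AT3G29360), a UDP-glucose dehydrogenase, was at 105, 84.9 and 92.1 CPM in WL_HM5, against 57.5, 57.3 and 67.2 CPM in Ws and 91.4, 80.3 and 62.5 CPM in Ler. Its rise of 0.44 ± 0.11 (adjusted p = 0.0055) held with each library left out and was lost with library totals as the scaling (adjusted p = 0.06). AXS1 (AT2G27860), which makes UDP-apiose and UDP-xylose, rose by 0.38 ± 0.08 (adjusted p = 0.0014) and held.

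Xyloglucan endotransglucosylases (XTH) cut and rejoin xyloglucan chains, and expansins loosen the wall without cutting it. Among 25 XTH genes, 2 were up-regulated and 2 down-regulated, with a median of 0.30, a share close to the 17.6% called over all genes. XTH15 (AT4G14130) was at 2.07, 2.48 and 6 CPM in WL_HM5, against 0.323, 0.0925 and 0.618 CPM in Ws and 0.14, 0.934 and 0.116 CPM in Ler. It rose above both parents by 3.23 ± 0.68 on the log2 scale (adjusted p = 0.0013), or by 2.60 without WL_HM5 replicate 3. XTH31 (AT3G44990) fell by 1.48 (SE 0.34, adjusted p = 0.0029), with 12.2, 9.08 and 10.1 CPM in WL_HM5, against 40.7, 5.09 and 10.3 CPM in Ws and 39.9, 53.1 and 28.4 CPM in Ler. The values overlapped those of Ws. Of 13 alpha-expansins, 2 were up-regulated and 3 down-regulated, and with library totals as the scaling none was up-regulated and 4 were down-regulated. EXPA1 (AT1G69530), an expansin of the leaf, was at 206, 105 and 178 CPM in WL_HM5, against 576, 396 and 333 CPM in Ws and 575, 492 and 538 CPM in Ler. The held log2 fold change of -1.56 ± 0.25 (adjusted p = 6.2e-05) put all 3 siblings below every parent library.

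Aux/IAA proteins are auxin-labile repressors, and 4 of 22 were up-regulated and none down-regulated, with a median of -0.01. That share is close to the 17.6% called over all genes. With library totals as the scaling 2 were also down-regulated. IAA29 (AT4G32280) was at 9.16, 15.2 and 22.2 CPM in WL_HM5, against 3.32, 3.7 and 3.17 CPM in Ws and 2.15, 6.23 and 5.46 CPM in Ler. It was above both parents in each sibling, by 1.98 ± 0.36 (adjusted p = 0.00027). IAA19 (AT3G15540) rose by 1.05 ± 0.29 (adjusted p = 0.013), and the call was lost without MPV replicate 1 (0.069) or WL_HM5 replicate 3 (0.059). Among 45 SAUR genes, which are short-lived auxin-induced growth genes, 2 were up-regulated and 10 down-regulated, with a median of -0.17. Over all genes tested, 6.99% were called higher and 10.6% lower. SAUR23 (AT5G18060) rose by 1.09 ± 0.23 (adjusted p = 0.0015). SAUR20 (AT5G18020) was at 0.6, 0.222 and 0.595 CPM in WL_HM5, against 0.231, 0.231 and 0.494 CPM in Ws and 6.34, 9.24 and 10.1 CPM in Ler. Its call of -3.21 ± 0.34 (adjusted p = 9.4e-08) placed WL_HM5 at the Ws level rather than beyond both parents. SAUR19 to SAUR24 are close copies, and reads that fit several of them were not counted. ARF17 (AT1G77850), an auxin response factor, fell by 0.65 (SE 0.13, adjusted p = 0.00094). Of 24 cyclins 3 were up-regulated and 1 down-regulated, close to the 17.6% called over all genes, or 1 and 1 with library totals. Their median was 0.67, and the call that held was CYCD3;2 (AT5G67260), a D-type cyclin, with a log2 fold change of -1.0 ± 0.24 (adjusted p = 0.0048). None of the 7 growth-regulating factor genes tested was called by edgeR, and their median was 0.44.

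**Figure D2:**
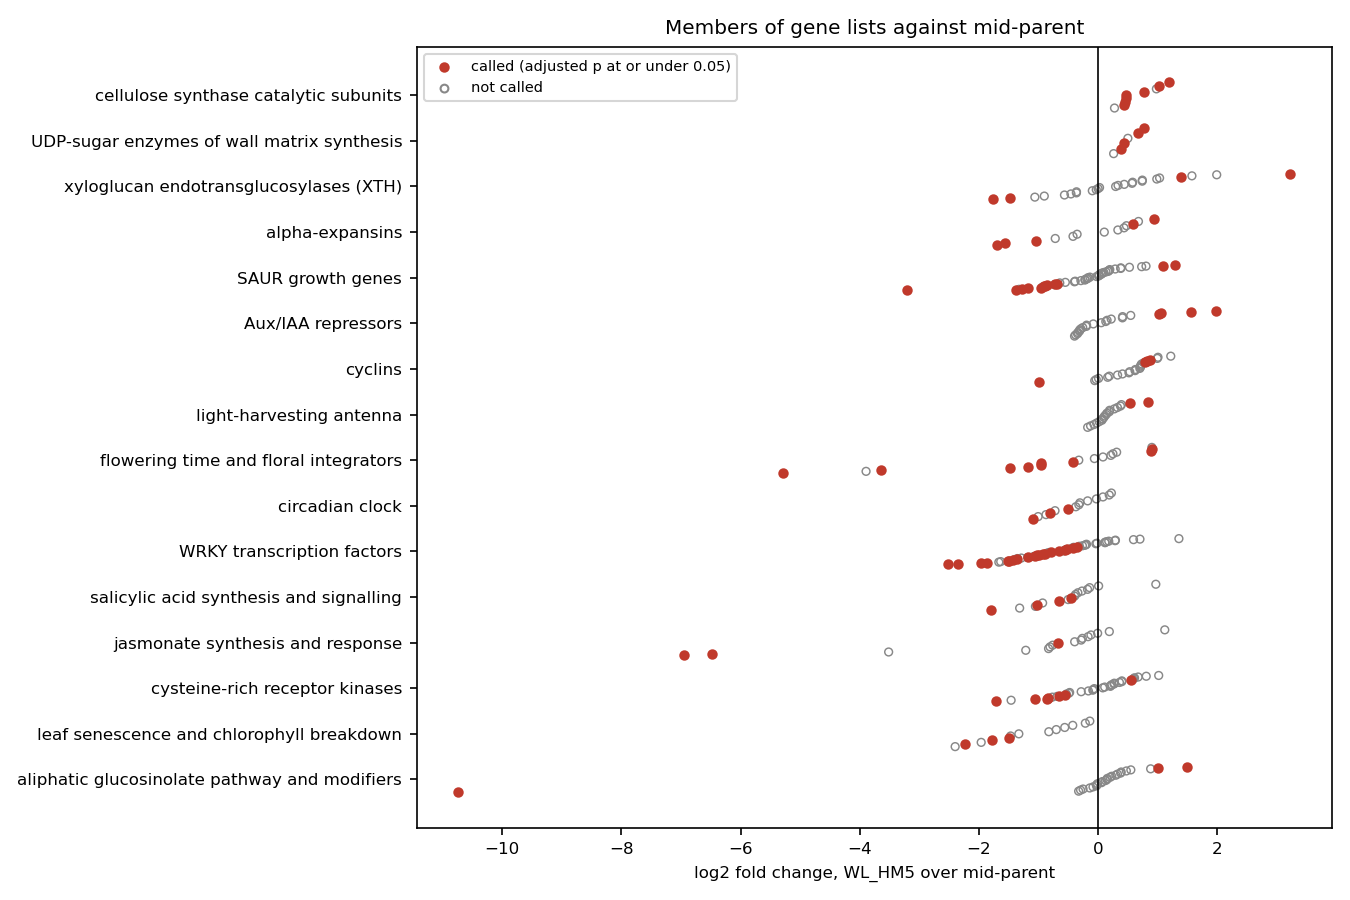
Log2 fold change of WL_HM5 over MPV for every tested member of 16 gene lists, 1 point per gene, filled where called at an adjusted p of at most 0.05. The cellulose synthase points lie right of 0 and no filled WRKY point lies right of 0, whereas XTH, expansin and SAUR genes have filled points on both sides.

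Part of the defence regulators tested were lower than MPV. WRKY factors control many pathogen-response genes, and of 51 tested, 20 were down-regulated, 31 were not called and none was up-regulated, with a median log2 fold change of -0.65 and the same counts with library totals as the scaling. The 5 held calls were WRKY2 (AT5G56270), WRKY3 (AT2G03340), WRKY7 (AT4G24240), WRKY22 (AT4G01250) and WRKY39 (AT3G04670), with log2 fold changes of -0.56, -0.52, -0.79, -1.42 and -0.65 in that order. WRKY22, which acts in immune receptor signalling, was at 1.91, 1.9 and 2.18 CPM in WL_HM5, against 4.01, 7.17 and 5.23 CPM in Ws and 4.85, 4.88 and 6.27 CPM in Ler. Siblings and parents did not overlap (SE 0.25, adjusted p = 0.00023). WRKY33 (AT2G38470), needed for resistance to necrotrophic fungi, was at 14.3, 19.1 and 12.8 CPM in WL_HM5, against 35, 50.9 and 37.5 CPM in Ws and 37.5, 24.9 and 24.1 CPM in Ler. It fell by 1.18 (SE 0.33, adjusted p = 0.015), and the call was lost without MPV replicate 2 (0.051) or WL_HM5 replicate 1 (0.056) or 3 (0.076).

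In the salicylic acid branch 4 of 16 genes were down-regulated, 12 were not called and none was up-regulated, with a median of -0.42. Over all genes tested 17.6% were called, and 10.6% were called lower. NPR3 (AT5G45110), a salicylic acid receptor, was at 24.6, 26.8 and 26.5 CPM in WL_HM5, against 55.9, 78.4 and 62.2 CPM in Ws and 36.8, 37.8 and 49.3 CPM in Ler. It was the one held call of the branch, with a log2 fold change of -1.03 ± 0.17 (adjusted p = 0.00012). CBP60G (AT5G26920), an activator of salicylic acid synthesis, fell by 1.79 (SE 0.52, adjusted p = 0.018), which was lost without MPV replicate 3 (0.054) or WL_HM5 replicate 1 (0.092) or 3 (0.058). Among 5 PR genes, the outputs of these pathways, PR3 (AT3G12500), a basic chitinase, was called at -4.85 ± 1.22 (adjusted p = 0.0062) and not without MPV replicate 2 (-3.55, adjusted p = 0.06), and the other 4 were not called. Of 16 jasmonate genes 3 were down-regulated and none up-regulated, near the 17.6% called over all genes, with a median of -0.53 and 1 held call.

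Cysteine-rich receptor kinases (CRK) sense stress at the cell surface. Of 34, 1 was up-regulated and 6 were down-regulated, near the 17.6% called over all genes, with 5 held falls and a median of 0.01. CRK3 (AT1G70530) was at 24.2, 31.2 and 24.3 CPM in WL_HM5, against 55.5, 69.3 and 52.5 CPM in Ws and 42.1, 49.7 and 67.5 CPM in Ler, and fell by 1.06 (SE 0.16, adjusted p = 3.8e-05). CRK41 (AT4G00970) was at 8.73, 8.24 and 10.1 CPM in WL_HM5, against 10.8, 18.9 and 11.2 CPM in Ws and 45.5, 48.9 and 43.5 CPM in Ler, and fell by 1.71 (SE 0.26, adjusted p = 4e-05). WL_HM5 was thus below both parents for each of the pair, and for CRK41 it was close to the lower parent.

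Several genes that bring about flowering were lower than MPV. Of 17 flowering-time genes tested, 2 were up-regulated and 7 down-regulated, with a median of -0.32, and 1 rise and 5 falls held. FT (AT1G65480), the mobile signal made in leaves under long days, was at 0.764, 0.93 and 0.198 CPM in WL_HM5, against 5.21, 11.4 and 11.9 CPM in Ws and 10.7, 2.91 and 5.88 CPM in Ler. No sibling reached the lowest parent library, and FT fell by 3.65 (SE 0.70, adjusted p = 0.00059). TSF (AT4G20370), the close relative of FT, had 1 count in the WL_HM5 libraries, against 112 counts in the parents, and the parent level was 51 times higher with a 95% counting interval of 8.97 to 2030. SOC1 (AT2G45660), which integrates flowering signals, was at 61.1, 70.9 and 61.2 CPM in WL_HM5, against 169, 254 and 179 CPM in Ws and 113, 135 and 238 CPM in Ler. The siblings lay within a narrow range below both parents, with a log2 fold change of -1.48 ± 0.17 (adjusted p = 6.9e-07). Repressors of flowering fell as well: TEM1 (AT1G25560), which represses FT, had a log2 fold change of -0.96 ± 0.19 (adjusted p = 0.001), and MAF3 (AT5G65060), a relative of FLC, one of -0.43 ± 0.11 (adjusted p = 0.0068). FRI (AT4G00650), an activator of FLC, rose by 0.90 ± 0.17 (adjusted p = 0.00059), and FLC itself was too low to be tested. For FRI, Ws was 2.14 above Ler on the log2 scale, and WL_HM5 was at about the Ws level. Beside these, 2 of 7 flower markers tested were down-regulated, with a median of -2.1. SEP3 (AT1G24260), a floral organ identity gene, was at 0.218, 0.354 and 0.496 CPM in WL_HM5, against 2.58, 2.54 and 1.52 CPM in Ws and 4.2, 2.7 and 4.57 CPM in Ler (log2 fold change -3.04 ± 0.66, adjusted p = 0.0018). The part of flower tissue or of the plants' developmental stage in these falls was not tested.

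Among 14 clock genes, 3 were down-regulated and none up-regulated, near the 17.6% called over all genes, and 2 held. LHY (AT1G01060), a morning repressor of the clock, was at 24.8, 36.9 and 26.7 CPM in WL_HM5, against 68.5, 50.1 and 70.6 CPM in Ws and 74.9, 57.1 and 59.4 CPM in Ler, and fell by 1.1 (SE 0.23, adjusted p = 0.0012). RVE8 (AT3G09600), a related activator, fell by 0.81 (SE 0.17, adjusted p = 0.0018). Both were below all parent libraries in all siblings. Levels of these genes change steeply over the day, and the hour within the sampling window is not given per library.

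Senescence genes had a median log2 fold change of -1.33 over 13 members, with 3 down-regulated and none up-regulated. That share is near the 17.6% called over all genes, and 1 of the falls held. NAP (AT1G69490), a NAC factor that promotes leaf senescence, was at 4.42, 11.9 and 5.5 CPM in WL_HM5, against 35, 54.3 and 25.6 CPM in Ws and 7.14, 10.4 and 20 CPM in Ler. It fell by 1.78 (SE 0.44, adjusted p = 0.0053), with values close to those of Ler. DIN1 (AT4G35770), a dark- and senescence-induced gene, fell by 2.23 (SE 0.55, adjusted p = 0.0053), which was lost without MPV replicate 2 (adjusted p = 0.053).

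In other pathways single genes carried the calls. Of 25 aliphatic glucosinolate genes, 2 were up-regulated and 1 down-regulated, all others not called. AOP3 and AOP2 are neighbours that modify glucosinolate side chains. AOP3 (AT4G03050) was at 0.273, 0.177 and 0.347 CPM in WL_HM5, against 0.323, 0.324 and 0.247 CPM in Ws and 1040, 999 and 739 CPM in Ler. AOP2 (AT4G03060) was at 237, 110 and 88 CPM in WL_HM5, against 151, 70.7 and 85.8 CPM in Ws and 1.4, 1.09 and 1.86 CPM in Ler. WL_HM5 was thus at the Ws level for both, and the call of AOP2 against MPV (1.49 ± 0.34, adjusted p = 0.0028) was lost without WL_HM5 replicate 1 (adjusted p = 0.054). SULTR1.2 (AT1G78000), a sulfate transporter, fell by 1.15 (SE 0.28, adjusted p = 0.0056), with 5.35, 4.16 and 3.82 CPM in WL_HM5, against 11.3, 17.5 and 15.7 CPM in Ws and 4.66, 3.63 and 6.39 CPM in Ler. None of 13 cold and drought genes was called. Of 19 light-harvesting antenna genes 2 were up-regulated, and neither call held.

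**Figure D3:**
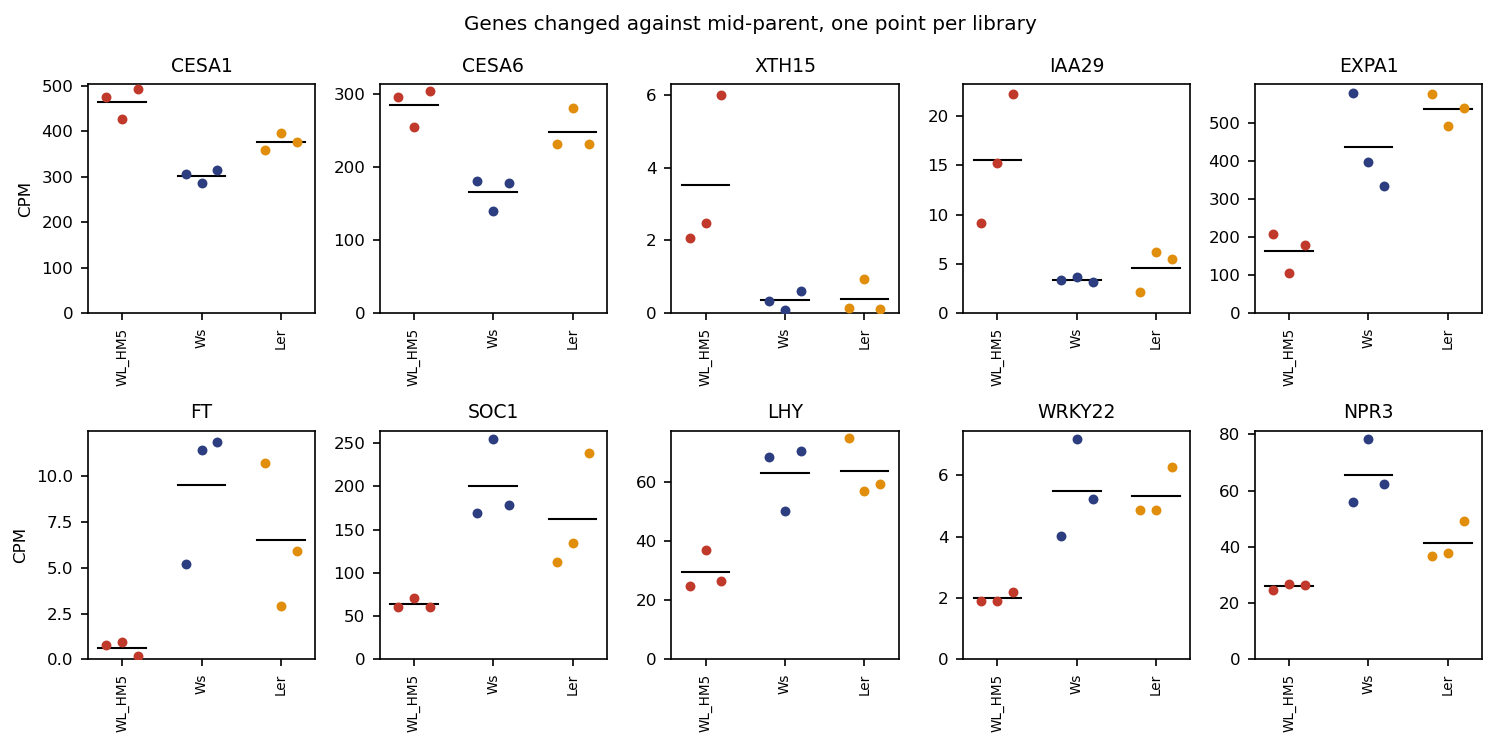
CPM of 10 genes in each library of WL_HM5, Ws and Ler, with the group mean as a bar and each axis starting at 0. CESA1, XTH15 and IAA29 lie above both parents in all WL_HM5 libraries, and EXPA1, FT, SOC1, LHY, WRKY22 and NPR3 lie below both.

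The comparison with the other Ws/Ler Hybrid Mimics asked what sets WL_HM5 apart from lines selected for the same phenotype. No parent library enters its contrast. Against the mean of the other 6 lines, 838 of 18146 genes were called (4.62%), 542 up-regulated (2.99%) and 296 down-regulated (1.63%), and 355 of them differed by at least 2-fold. Of these, 352 (1.94%) held with each of the 21 libraries left out in turn, 266 up-regulated (1.47%) and 86 down-regulated (0.474%). Without WL_HM5 replicate 2 the count was 506. Lines from 1 cross carry different parental segments, so a gene can be called here because it is at the level of one parent in WL_HM5 and at that of the other in some of the lines. Genes whose 3 WL_HM5 libraries lay outside all 18 libraries of the other lines were counted as well. There were 87 (0.479%), 53 above and 34 below. Counted in the same way, WL_HM3 had 370 such genes, WL_HM1 281, WL_HM4 224, WL_HM6 195, WL_HM2 125 and WL_HM7 110, so WL_HM5 had the fewest of the 7 lines.

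Of the 87 genes, 70 were also called (0.386%), 44 up-regulated (0.242%) and 26 down-regulated (0.143%). These 70 genes were closer to the Ws mean than to the Ler mean in 56 cases. The parents themselves differed for 36 of them, and of these 31 were nearer Ws and 5 nearer Ler. They were spread over chromosomes 1 to 5 with 20, 8, 20, 14 and 6 genes, and 2 were on the chloroplast genome. Loci AT3G02 to AT3G06 held 10 of them, out of 420 genes tested there, and loci AT1G67 and AT1G68 held 8, out of 147 tested there. For 32 genes all 3 WL_HM5 libraries lay outside the range of the 6 parent libraries.

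RLP33 (AT3G05660), a receptor-like protein of the cell surface, was at 8.73, 15.5 and 10 CPM in WL_HM5, against 0.492 to 1.44 CPM (median 0.823) in the 18 libraries of the other lines. Ws was at 4.06, 6.57 and 4.37 CPM and Ler at 1.63, 1.09 and 0.735 CPM. WL_HM5 was the one Hybrid Mimic above the Ler range, with a log2 fold change of 3.79 ± 0.16 over the other lines (adjusted p = 1.7e-16). CTC1 (AT4G09680), which protects telomeres, was at 38, 41.6 and 37.7 CPM in WL_HM5, against 4.56 to 35.8 CPM (median 17.7) in the other lines. The other lines fell into levels near Ws (35.6, 37.6 and 35.5 CPM) or near Ler (6.02, 7.06 and 4.99 CPM), and WL_HM5 was at the Ws level (1.58 ± 0.05, adjusted p = 2.1e-19). URE (AT1G67550), urease, was at 46.4, 51.1 and 44.8 CPM in WL_HM5, against 21.3 to 37.5 CPM (median 26.7) in the other lines, a difference of 0.81 ± 0.09 (adjusted p = 1.7e-07). Ws was at 47.2, 58.1 and 52.7 CPM for this gene. AT3G06145, a RING zinc finger gene, was at 22.3, 18.2 and 19.6 CPM in WL_HM5, against 4.14 to 11.8 CPM (median 7.56) in the other lines (1.45 ± 0.16, adjusted p = 1.3e-07).

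Further rises were ranked among the 70 genes, where the mean was at least 100 normalised counts in the higher group. AT1G76720, annotated as a translation initiation factor, was at 58.2, 47.9 and 52.6 CPM in WL_HM5. The other lines were at 8.94 to 43 CPM for it (1.71 ± 0.15, adjusted p = 3.2e-09 by edgeR). The lines' means placed WL_HM6 closest, at 37.9 CPM. CYP71B24 (AT3G26230), a cytochrome P450, rose by 1.35 ± 0.20 (adjusted p = 3.2e-05), AT3G05180, a GDSL-type lipase, by 0.95 ± 0.14 (adjusted p = 1.6e-05), and AT3G24870, a helicase and SANT-associated protein, by 0.90 ± 0.09 (adjusted p = 6.7e-08). All of these were near the Ws level in WL_HM5. AT5G62280, of unknown function, was at 9.66, 20.2 and 23.7 CPM in WL_HM5, against 1.46 to 9.26 CPM in the other lines, and was above both parents (1.80 ± 0.28, adjusted p = 6.6e-05). AT4G22490, a lipid-transfer protein gene, rose by 1.79 ± 0.52 with an adjusted p of 0.043, and its call was lost in 14 of 21 fits with 1 library left out.

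CHAT (AT3G03480), which makes the leaf volatile hexenyl acetate after wounding, was at 0.491, 2.48 and 1.93 CPM in WL_HM5, against 3.66 to 71.9 CPM (median 26) in the other lines. Ws was at 5.58, 7.03 and 4.33 CPM and Ler at 13.2, 17.9 and 46.8 CPM, so WL_HM5 was below both parents. WL_HM4, with 3.66, 4.96 and 4.29 CPM, was the line closest to it (log2 fold change -3.59 ± 0.48, adjusted p = 5.1e-06). AT3G06210, an ARM repeat gene, was at 9.16, 9.26 and 9.62 CPM in WL_HM5, against 15.4 to 21 CPM in the other lines, and fell by 0.86 (SE 0.13, adjusted p = 2.7e-05). AT1G68580, a BAH domain gene, was at 21.8, 19.8 and 24.1 CPM in WL_HM5, against 28 to 42.9 CPM in the other lines, and fell by 0.60 (SE 0.08, adjusted p = 2.1e-06). Both were nearer to Ws than to Ler, and for AT3G06210 all 3 siblings lay outside the range of the 6 parent libraries. AT3G27400, a pectin lyase-like gene, had a log2 fold change of -1.58 ± 0.28 (adjusted p = 0.00032), AT1G68110, an ENTH domain gene, of -1.27 ± 0.25 (adjusted p = 0.001), AT1G68650 of -0.82 ± 0.15 (adjusted p = 0.00031) and RHB1A (AT4G00335), a RING finger gene, of -0.41 ± 0.08 (adjusted p = 0.0016). AT1G68110 and RHB1A were below both parents in all 3 siblings.

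The calls of 3 further genes with large falls did not hold. LRX3 (AT4G13340), a leucine-rich repeat extensin of the wall, was at 91.5, 85.9 and 109 CPM in WL_HM5, against 115 to 302 CPM in the other lines (-0.83 ± 0.20, adjusted p = 0.011). It was not called without WL_HM5 replicate 1 (0.079) or 2 (0.11). DIN11 (AT3G49620), a dark-induced oxygenase gene, was called at -3.38 ± 0.96 (adjusted p = 0.035) and lost the call without WL_HM5 replicate 1 (0.089), 2 (0.21) or 3 (0.18). ABCI8 (AT4G04770), a plastid protein of iron-sulfur cluster assembly, fell by 0.57 (SE 0.11, adjusted p = 0.0015), which was lost without WL_HM5 replicate 2 (adjusted p = 0.053).

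**Figure D4:**
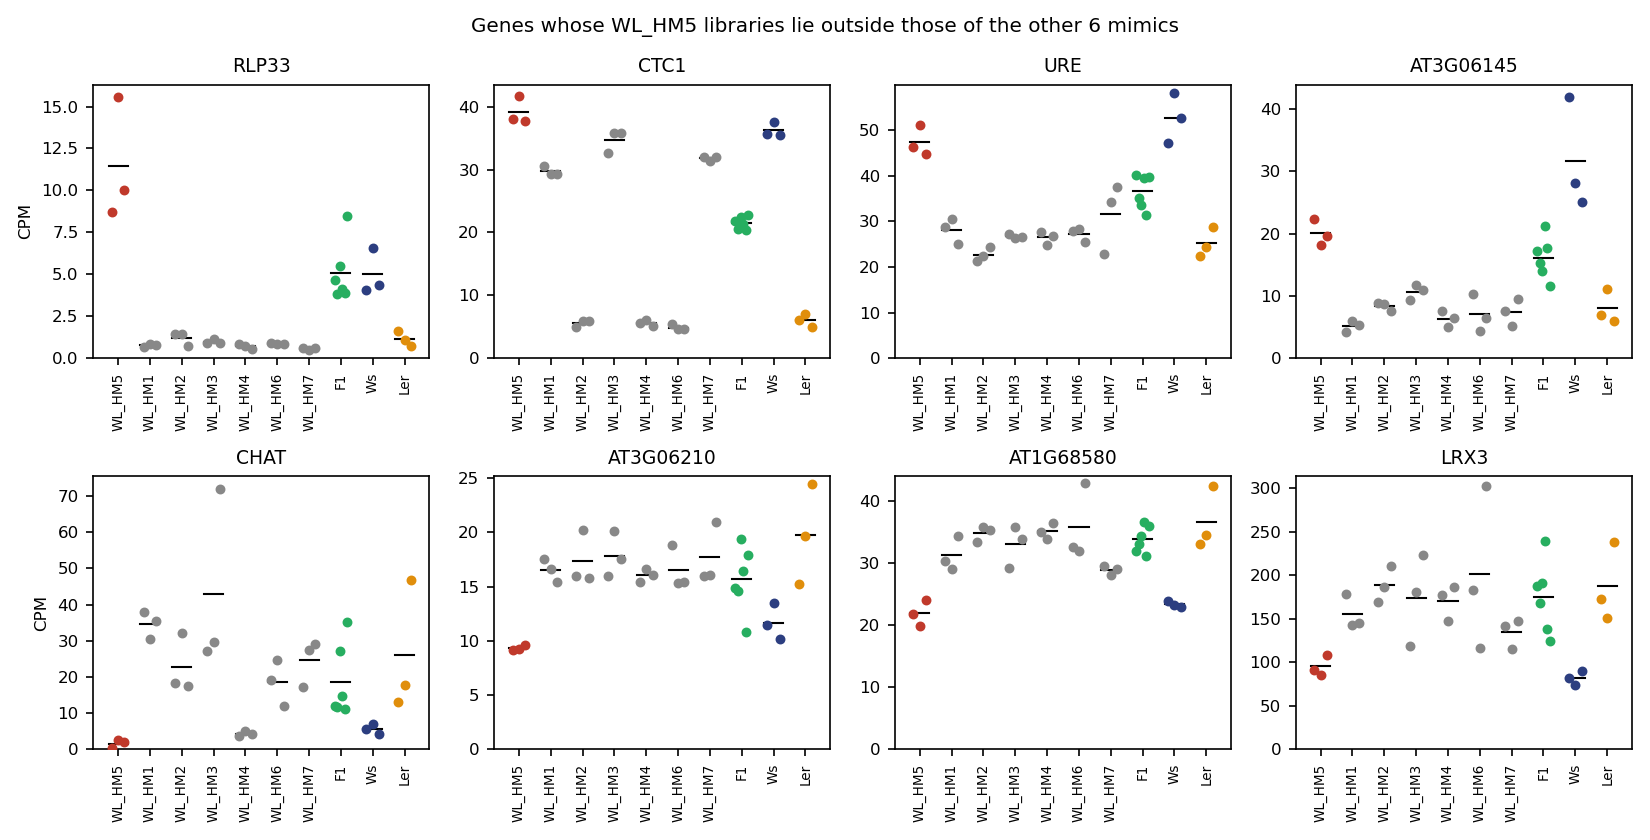
CPM of 8 genes in each library of WL_HM5, the other 6 Hybrid Mimics, the F1 hybrids, Ws and Ler, with group means as bars. The 3 WL_HM5 points lie above all 18 points of the other lines for RLP33, CTC1, URE and AT3G06145, and below them for CHAT, AT3G06210, AT1G68580 and LRX3.

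The iron regulators were also higher in WL_HM5 than in the other Hybrid Mimics. Of the 16 iron genes tested 9 were up-regulated, all held, and 1 was down-regulated, with a median of 0.82 against -0.01 over all genes. The list was drawn up after values had been seen, so these counts are a description and not independent evidence. The same 3 WL_HM5 libraries enter this comparison and that with MPV. BHLH39 had a log2 fold change of 4.03 ± 0.58 (adjusted p = 1.7e-05), BHLH100 of 3.93 ± 0.52 (adjusted p = 4.9e-06) and BHLH38 of 3.55 ± 0.57 (adjusted p = 9.2e-05). BHLH39 was at 3.32 and BHLH38 at 2.81 without WL_HM5 replicate 3. BHLH101 (AT5G04150) was at 2.02, 3.81 and 2.97 CPM in WL_HM5, against 0 to 2.31 CPM (median 0.233) in the other lines (3.12 ± 0.51, adjusted p = 0.0001). In Ws it was at 6.04, 1.9 and 1.94 CPM, and against MPV it was not called (0.73, adjusted p = 0.51). BTS was at 75.7 to 284 CPM (median 124) in the other lines (1.06 ± 0.16 for WL_HM5 over them, adjusted p = 2.4e-05), and FRO3 at 12.8 to 49.6 CPM with a median of 22.9 (1.28 ± 0.18, adjusted p = 1.1e-05). ZIF1 (1.06 ± 0.17), OPT3 (AT4G16370, 0.82 ± 0.16), which loads iron into the phloem, and PYE (AT3G47640, 0.77 ± 0.15), a bHLH regulator of iron homeostasis, were up-regulated too. FER4 (AT2G40300), a ferritin, fell by 0.89 (adjusted p = 0.023), which was lost without WL_HM5 replicate 1 (0.15) or 2 (0.29). FIT (AT2G28160), the root partner of these bHLH factors, was not called (0.71, adjusted p = 0.4).

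The raised level was shared with WL_HM4. BHLH100 was at 1.99, 4.64 and 13.3 CPM in WL_HM4, and no library of WL_HM1, WL_HM2, WL_HM3, WL_HM6 or WL_HM7 exceeded 1.36 CPM. With WL_HM4 left out of the mean, the log2 fold changes of WL_HM5 were 4.65 for BHLH100, 4.74 for BHLH39 and 4.17 for BHLH38. The iron supply of the soil is not given, and its part in these levels was not tested.

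Of 34 cysteine-rich receptor kinases, 7 were up-regulated against the other lines, of which 6 held, and 2 were down-regulated. CRK4 (AT3G45860) was at 17.7, 19.7 and 30.4 CPM in WL_HM5, against line means of 37.3 CPM in WL_HM1, 10.9 in WL_HM4, 17.6 in WL_HM7 and under 0.05 CPM in WL_HM2, WL_HM3 and WL_HM6. Ws was at 45.5, 64 and 55.3 CPM, and Ler at 0, 0 and 0.116 CPM. CRK14 (AT4G23220) was at 5.45, 7.93 and 5.3 CPM in WL_HM5, against means of 7.31, 7.8 and 5.88 CPM in WL_HM1, WL_HM3 and WL_HM7 and at most 0.0156 CPM in the other lines. CRK23 (AT4G23310), in the same cluster, was at 6.98, 8.06 and 7.09 CPM in WL_HM5, against 5.74, 7.56 and 6.79 CPM in WL_HM1, WL_HM3 and WL_HM7 and 0.28 to 0.807 CPM in the others. For CRK4 every WL_HM5 library was below every Ws library and far above Ler. Kinases of this cluster are close copies, and reads of Ws and Ler were aligned to the Columbia genome, so a level near 0 cannot be told apart from reads that did not align.

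Further genes with known roles differed from the other lines in the same manner. FRI was at 6.27, 5.45 and 4.86 CPM in WL_HM5, against line means of 4.95, 4.53 and 5.04 CPM in WL_HM2, WL_HM3 and WL_HM4 and 0.789 to 1.15 CPM in the other 3 (1.37 ± 0.12, adjusted p = 3.7e-09). AOP2 was called at 1.61 ± 0.23 (adjusted p = 1.8e-05), and without WL_HM6, where its mean was 0.678 CPM, the log2 fold change was 0.39 (adjusted p = 0.53). SAUR26 (AT3G03850), a growth gene on chromosome 3, was at 2.51, 1.59 and 2.38 CPM in WL_HM5, against 1.55 to 18.1 CPM (median 6.99) in the other lines, and fell by 1.5 (SE 0.27, adjusted p = 0.00046). In WL_HM4 its mean was 1.82 CPM. IAA29 was called at 1.31 ± 0.24 (adjusted p = 0.00054) and not without WL_HM5 replicate 3 (adjusted p = 0.061). EXPA1 fell by 0.84 (SE 0.20, adjusted p = 0.0084), which was lost without WL_HM5 replicate 2 (adjusted p = 0.19). ACD6 (AT4G14400), a regulator of defence and growth, was at 347, 412 and 257 CPM in WL_HM5, against line means of 327, 322 and 264 CPM in WL_HM1, WL_HM3 and WL_HM7 and 42.7 to 86 CPM in the others (1.32 ± 0.29, adjusted p = 0.0045). That call was lost without WL_HM5 replicate 2 (adjusted p = 0.083).

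By edgeR, no member of the cellulose synthase, UDP-sugar, XTH, PR, clock or senescence lists was called between WL_HM5 and the other lines. Their median log2 fold changes were -0.05, -0.05, -0.16, 0.07, -0.01 and -0.03 in that order. Of 51 WRKY genes 1 was up-regulated and 2 were down-regulated, and none of these held. Of 45 SAUR genes 2 were up-regulated and 1 was down-regulated, and the fall held. Of 17 flowering-time genes the 1 called was FRI. Among 16 jasmonate genes 2 were down-regulated, with a median of -0.83, and neither held. Of 7 flower markers 1 was down-regulated, with a median of -0.86. It was SEP3 (-2.13 ± 0.58, adjusted p = 0.026), which was not called without WL_HM5 replicate 1 (0.16), 2 (0.15) or 3 (0.069) or without WL_HM2 (0.061). The summed flower markers were at 0.764 to 1.77 CPM in WL_HM5, against 1.43 to 17.1 CPM in the other lines.

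The line's parental make-up was described with 504 genes whose levels separate Ws from Ler by at least 4-fold without overlap. They were taken from 3524 genes called between the parents, 20.7% of 17043 tested. Each library was placed on a scale where Ler is 0 and Ws is 1 on the log2 scale, with 0.75 and above counted as the Ws level and 0.25 and below as the Ler level. The 3 WL_HM5 libraries had 38.7%, 39.9% and 44.8% of these genes at the Ws level (mean 41.1% ± 3.26, SD, n = 3) and 38.5%, 40.1% and 34.9% at the Ler level (mean 37.8% ± 2.64). All 3 siblings were at the Ws level for 166 genes and at the Ler level for 138, and for 33 genes at least 1 sibling was at each level. Genes split in this way numbered 41 in WL_HM7, 35 in WL_HM1, 32 in WL_HM3, 18 in WL_HM6, 14 in WL_HM4 and 8 in WL_HM2. Among the other lines the mean share at the Ws level was lowest in WL_HM6 with 16.2%, followed by WL_HM2 with 23.1%, WL_HM7 with 35.4%, WL_HM1 with 44.4%, WL_HM4 with 45.6% and WL_HM3 with 50.8%. The F1 hybrids had 27% (WsxLer) and 28.2% (LerxWs). WL_HM5 was in the middle of the lines.

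In the order of the loci, genes at 1 parent's level lay next to each other. A running median over 9 genes, chosen after the values had been seen, put 262 of the 504 genes on the Ws side in all 3 siblings, 195 on the Ler side in all 3, and 47 on different sides among siblings. This split has no class for F1-like levels. The F1 hybrids averaged 0.79 for AT3G44430, which is higher in Ws, and 0.06 for AT3G44070, which is higher in Ler. Where a library is at the F1 level, its side therefore follows which parent is higher, and these counts include such stretches. Chromosome 1 was on the Ler side from its first gene to AT1G35260. All 73 genes of chromosome 2 were on the Ws side, with 48, 53 and 53 of them at the Ws level in the 3 libraries and 7, 4 and 7 at the Ler level. On chromosome 3, 9 genes from AT3G02040 to AT3G05945 were on the Ws side, and the next 29, 28 and 30 genes on the Ler side. Chromosome 4 was on the Ws side for its first 78, 79 and 79 genes. On chromosome 5, 41, 40 and 41 genes were on the Ws side and the following 71, 72 and 71 on the Ler side to AT5G67080. These are levels of RNA, and no genotype was read.

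The Ws stretches seen in no other line, or in 1 other line, were few. By the running median, 6 genes were on the Ws side in WL_HM5 alone, 3 between AT1G66830 and AT1G67810, CHAT, and 2 from RLP33 to AT3G05945. Gene by gene this was less clear. The median positions of the 3 genes from AT1G66830 to AT1G67810 were 0.27, 0.69 and 0.03 in the WL_HM5 libraries. In WL_HM4 the mean position was 0.94 for AT1G66830, 1.18 for CHAT and 1.02 for AT3G05945, and in WL_HM1 it was 1.02 for AT3G05945. A further 34 genes were on the Ws side in WL_HM5 and 1 other line. The longest such stretch was 18 genes from AT1G69480 to AT1G80570, shared with WL_HM6, with median positions of 0.79, 0.87 and 0.80 in the 3 WL_HM5 libraries. Another 9 genes from AT3G24890 to AT3G27200 were shared with WL_HM1.

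The 3 siblings were not alike everywhere. In 15 genes from AT1G60020 to AT1G65150 the median positions were 0.65, 0.13 and 0.64, so replicate 2 was near Ler and both others were between the parents. In 7 genes from AT3G30875 to AT3G44070 they were 0.20, 0.23 and 0.94, and in 12 genes from AT3G46385 to AT3G50970 they were 0.19, 0.22 and 0.99. Replicate 3 was at the Ws level in both of these stretches, and the medians of its 2 siblings were nearer Ler. Gene by gene these 2 were close to the F1 hybrids instead. AT3G43955, higher in Ws, was at 0.88 and 0.86 in replicates 1 and 2 and at 0.89 in the F1 hybrids. AT3G43340, higher in Ler, was at 0.16 and 0.18, and at 0.16 in the F1 hybrids. AT3G46385 (0.87 and 0.76, F1 0.82) and AT3G47250 (0.14 and 0.11, F1 0.09) gave the same picture. Whether these plants held both alleles was not tested. Spread between WL_HM5 libraries thus includes stretches of genes in which the plants differed together.

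**Figure D5:**
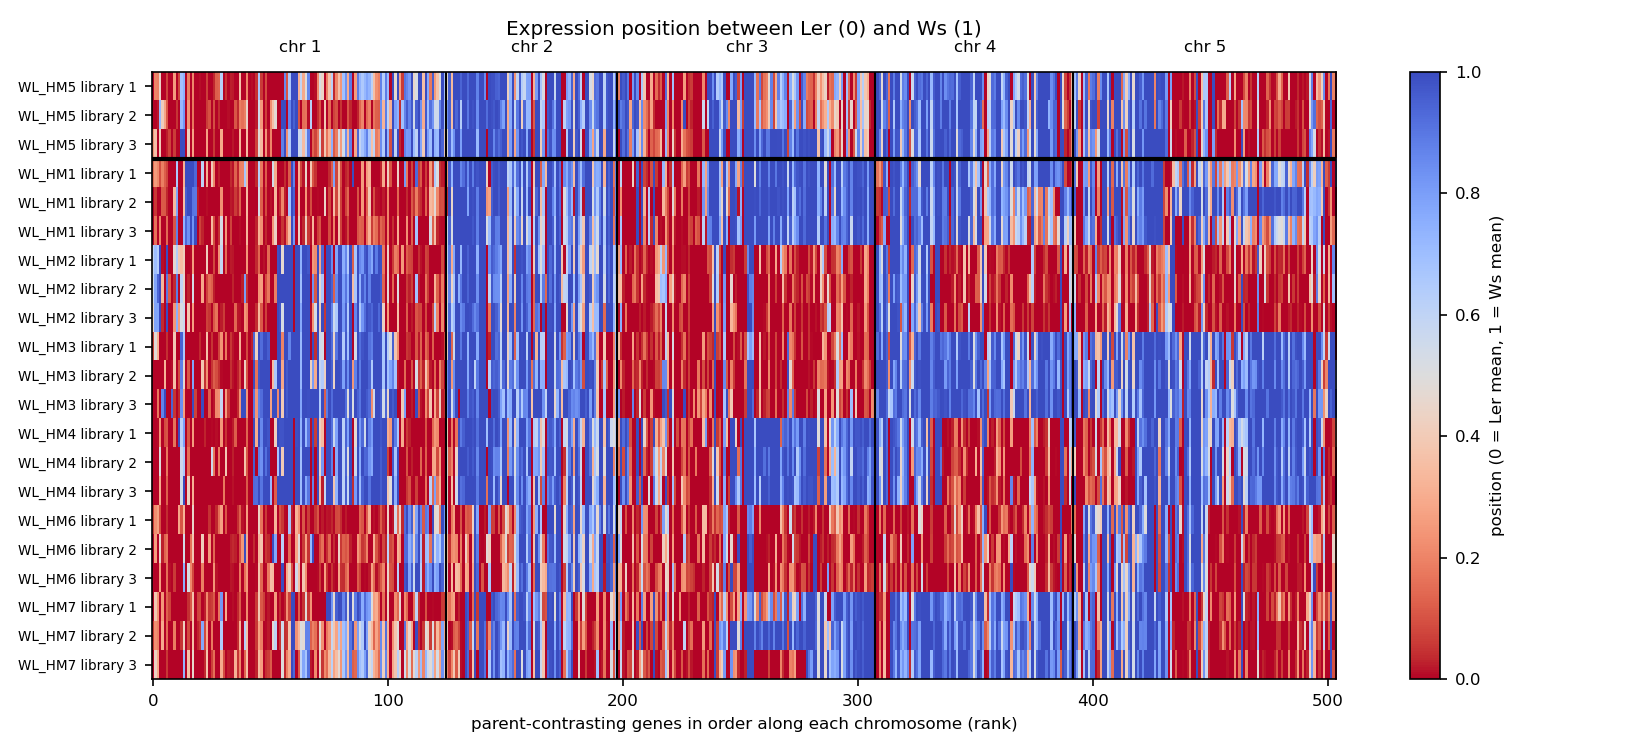
Position between Ler (0) and Ws (1) of the 504 genes that separate the parents, ordered by locus along chromosomes 1 to 5, for the 3 WL_HM5 libraries and then the 18 libraries of the other Hybrid Mimics. Values beyond the parental means take the end colours, and long runs in WL_HM5 cover chromosomes 2 and 4 (blue, Ws) and the start of chromosome 1 (red, Ler), and its 3 rows differ in parts of chromosomes 1 and 3.

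Against the F1 hybrids, 4974 of 18146 genes were called (27.4%), 2134 up-regulated (11.8%) and 2840 down-regulated (15.7%), or 57.1% lower. With library totals as the scaling the split was 1262 to 3406, or 73.0% lower. The share lower was 52.9% with RLE size factors and 53.5% with DESeq2. Of the 4974 calls 2143 (11.8%) held, and for 3290 (18.1%) the WL_HM5 and F1 libraries did not overlap, 1474 up-regulated (8.12%) and 1816 down-regulated. Without WL_HM5 replicate 3 the count was 2778. Changes were ranked as for MPV, among genes whose WL_HM5 libraries lay outside the range of the F1 libraries. The largest rises were again BHLH100 (4.59 ± 0.73, adjusted p = 3.9e-05), BHLH39 (4.32 ± 0.79, adjusted p = 0.00022) and BHLH38 (4.03 ± 0.79, adjusted p = 0.00044). BHLH39 was at 5.43 and BHLH38 at 4.92 without LerxWs replicate 2, and they were at 3.61 and 3.29 without WL_HM5 replicate 3. The F1 libraries had 0 to 0.787 CPM of BHLH100, all below WL_HM5.

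The largest falls against the F1 hybrids by this ranking were in genes expressed in 1 parent and at or near 0 in WL_HM5. AT1G14250, a nucleoside phosphatase family gene, had 0 counts in WL_HM5, against 2017 in the 6 F1 libraries, and was at least 342-fold lower with 3 counts over the group as the floor. It was at 28.7, 17.8 and 43.3 CPM in Ws and at most 0.104 CPM in Ler. AT4G04402, a phosphorelay mediator gene, had 0 counts in WL_HM5, against 1079 in the F1 libraries, at least 183-fold lower, and was at 16, 17.8 and 25.5 CPM in Ler and 0 in Ws. AOP3 had a log2 fold change of -10.88 ± 0.64 (adjusted p = 4.9e-13), with 374 to 646 CPM in the F1 hybrids.

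Of 9 CESA genes 5 were up-regulated against the F1 hybrids, and none held. For flowering time, 2 of 17 genes were up-regulated and 9 down-regulated, of which 7 held, and 22 of 51 WRKY genes were down-regulated, of which 12 held, with medians of -0.39 and -0.59. Of 5 PR genes 2 were up-regulated and 1 was down-regulated, with a median of 1.71, and none held. Of 34 cysteine-rich receptor kinases 9 were up-regulated, of which none held, and 6 were down-regulated, of which 5 held, with a median of 0.45. Senescence genes had 8 of 13 members down-regulated, of which 1 held, with a median of -1.21. Of the rosette leaf markers 4 of 6 were up-regulated, with a summed level of 48100 to 57400 CPM in WL_HM5, against 29700 to 42900 CPM in the F1 hybrids. The summed flower markers were at 0.764 to 1.77 CPM in WL_HM5, against 2.1 to 20.9 CPM in the F1 hybrids, and their part in the flowering-time calls was not tested.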

How the data were processed

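Per the labels and the study's methods, RNA of rosette leaves from 25-day-old plants was sequenced, and the authors aligned the reads with STAR 2.5.3a to the TAIR10 genome and counted uniquely aligned reads per Araport11 gene. The deposited counts are raw and unfiltered for 37336 genes in 72 libraries. The strand setting is not given in the sources used here, so overlapping and antisense genes are uncertain, as are near-identical copies. Names came from the TAIR10.1 annotation, in which 37051 identifiers matched.

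Counts were tested in R 4.3.3 with edgeR 4.0.16 (TMM, quasi-likelihood F test) and limma 3.58.1 in a fit of 36 Ws/Ler libraries, 3 of them MPV libraries made by adding Ws and Ler counts of the same replicate number, each at weight 0.5. Their spread is not that between parent samples. The parents were compared in a fit of 9 parent libraries. A gene was tested where 1 or more libraries of the fit held 50 counts of it, p-values were adjusted by Benjamini-Hochberg, and genes at or under 0.05 were called. Fold changes are on the log2 scale. WL_HM5 library pairs had chi-square values per gene of 21.1 to 26.0, far above sampling noise, and were kept as 3 samples. Counting intervals and floors cover counting error only.

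Named genes were protein-coding genes called with at least 100 normalised counts in the higher group whose 3 WL_HM5 libraries lay outside the range of the libraries they were compared with, the 10 largest changes in each direction (3 against F1), and up to 3 called members of each list in each direction. The iron list and genes named from it were chosen after their values were seen, as were other members given as examples. Members and lists were chosen with earlier results of these data known. Alternatives were DESeq2 1.42.0, other scalings, filters, mid-parent constructions and libraries left out. The fit was tested on simulated data.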

Additional observations from a re-analysis of the deposited data

Results flagged for a closer look

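For 5 genes WL_HM5 and the mean of the other 6 Ws/Ler Hybrid Mimics were on opposite sides of MPV, and the difference itself passed edgeR's test. RLP33 was at 1.90 in WL_HM5 against -1.90 in the other lines as log2 fold change over MPV, a difference of 3.79 (adjusted p = 1.7e-16). AT1G76720 was at 0.80 in WL_HM5 against -0.91, a difference of 1.71 (adjusted p = 3.2e-09). CTC1 was at 0.89 in WL_HM5 against -0.69, a difference of 1.58 (adjusted p = 2.1e-19). FRI was at 0.90 in WL_HM5 against -0.47, a difference of 1.37 (adjusted p = 3.7e-09). AT3G24870 was at 0.48 in WL_HM5 against -0.42, a difference of 0.90 (adjusted p = 6.7e-08). Single lines among the 6 were near WL_HM5: on the scale from 0 at the Ler level to 1 at the Ws level, FRI was at 1.02 in WL_HM2, 0.95 in WL_HM3 and 1.03 in WL_HM4, CTC1 at 0.89 in WL_HM1, 0.98 in WL_HM3 and 0.93 in WL_HM7, and AT1G76720 at 0.82 in WL_HM6. AT3G24870 averaged 13.9 CPM in WL_HM1, against 13.8 to 15.8 CPM in Ws. Both values of each gene use the same MPV libraries, whereas the difference does not.

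AT4G04402 had 1 F1 library, at 7.11 CPM, apart from the other 5. Its gap to the nearest library was 0.638 of the group's range, above Dixon's 95% limit for 6 samples, and chance passes this limit in about 1 of 20 groups.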

How the results depend on the processing

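The single-gene results gave 3006 values under the alternatives for 143 results. None reversed, 2820 kept their side of the threshold, 184 lost the call, 146 of these with a library left out, and 2 gained one, both for FER1 against the other lines (adjusted p = 0.035 with DESeq2 and 0.044 with only the groups compared). At an unadjusted p of at most 0.05, 5818 genes were called against MPV and 2510 against the other Hybrid Mimics. With at least 50 counts in every library 413 genes were called against the other Hybrid Mimics, and with only the groups compared in the fit 3140 against the F1 hybrids. With 1 library left out, the counts were 1905 to 3014 against MPV, 506 to 890 against the other Hybrid Mimics, 2778 to 6076 against the F1 hybrids and 2019 to 5984 between Ws and Ler. Between Ws and Ler they were 2190 without Ler replicate 1, 2019 without Ler replicate 2, 5984 without Ler replicate 3 and 2085 without Ws replicate 2. The mean share of genes at the Ws level was 29.2% with a log2 limit of 1 between the parents, 49.9% with 3 and 45.2% with position limits of 0.67 and 0.33, and 36.9% to 44.3% with a parent library left out. The share at the Ler level was 45.8% with a log2 limit of 1 and 41.1% with the wider position limits, and 34.3% to 41.7% with a parent library left out. The cause of these shifts was not tested. DESeq2 called 3835 genes against MPV, 1060 against the other lines and 5487 against the F1 hybrids. A mid-parent on the log scale gave 4017 calls, 51.9% of them lower. AOP2 then stood at 3.56, AT2G27402 at 7.06, AOP3 at -5.96, SAUR20 at -1.83, NIG1 at 3.89, PDF1.2a at -5.07 and AT5G41590 at -3.63.

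Replicate numbers pair no samples here. Same-numbered WL_HM5 and MPV libraries had correlations of 0.099, 0.037 and 0.08 in their deviations. With the other lines they ran from -0.306 to 0.502. All were positive with WL_HM2 (0.286, 0.183 and 0.049) and WL_HM7 (0.502, 0.15 and 0.097), but in no line did all 3 pairs exceed 0.1. With the replicate number as a block, 3376 genes were called against MPV, 860 against the other Hybrid Mimics and 5152 against the F1 hybrids. Only 3 plants of 1 line were measured, and low genes such as BHLH38 rest on few counts. The p-values use a spread within groups that was estimated over the 36 libraries of the fit. It comes from these siblings, the other lines and the pooled F1 and MPV libraries.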
